A study of Homo sapiens with 20 samples.

Results

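The cytosolic ribosomal protein genes were measured by RNA-seq after siRNA knockdown of HUWE1 in HEK293T, an established line of human embryonic kidney origin. The members are the RPL and RPS symbols with a plain number, with or without a final A or X, plus RPLP0, RPLP1, RPLP2, RPSA and FAU. This rule found 77 of the 45372 symbols in both tables of TPM (a transcript's length-scaled share of all transcripts of its library), 45 of the large and 32 of the small subunit. Every one of the 77 passed the filter on low values. There were 5 groups of 4 libraries: HUWE1 siRNAs in set 1 against non-targeting (NT) siRNAs in set 1, and HUWE1 siRNAs in set 2 and in set 3 against 4 NT libraries that both share. All groups received siRNA, the controls included, and the labels name siRNAs in the plural without giving their sequences or how the sets differ. Replicates are called biological without saying what separates them, so p-values measure the spread between these samples.

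Each cytosolic ribosome joins a small subunit, which reads the mRNA, to a large subunit, which makes the peptide bond, and each subunit holds ribosomal RNA and a fixed set of proteins made from separate genes. Most mRNAs of these proteins are TOP mRNAs: they begin with a C followed by a run of pyrimidines, and the mTOR pathway sets how well they are translated and, through LARP1, how stable they are. HUWE1 is a large HECT-type ubiquitin ligase. Its yeast counterpart Tom1 ubiquitinates ribosomal proteins that were made in excess and not assembled, and the same role has been reported for human HUWE1.

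The starts of the mRNAs whose values carry the results below are shown first. Each line is RefSeq sequence of build GRCh38.p14, with 15 bases before the annotated start and 25 bases from it onward, 5′ to 3′ on the gene's strand, with the uninterrupted pyrimidine run that opens the transcript in capitals. The first 6 genes were called higher in sets 1 and 3, and the last 3 have annotated starts without such a run. For RPL10, which has 3 annotated starts, the one with a run is shown.
RPL10 (chrX:154398362-154398401, plus strand): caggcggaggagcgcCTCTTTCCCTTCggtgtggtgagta
RPL13A (chr19:49487593-49487632, plus strand): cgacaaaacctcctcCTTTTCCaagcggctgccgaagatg
RPL14 (chr3:40457324-40457363, plus strand): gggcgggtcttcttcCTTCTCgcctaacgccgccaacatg
RPS25 (chr11:119018319-119018358, minus strand): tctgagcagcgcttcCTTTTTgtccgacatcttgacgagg
RPS23 (chr5:82278330-82278369, minus strand): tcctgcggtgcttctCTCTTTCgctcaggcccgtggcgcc
FAU (chr11:65122110-65122149, minus strand): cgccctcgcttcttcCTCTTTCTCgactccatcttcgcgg
RPL9 (chr4:39458898-39458937, minus strand): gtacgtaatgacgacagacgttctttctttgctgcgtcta
RPL10A (chr6:35468386-35468425, plus strand): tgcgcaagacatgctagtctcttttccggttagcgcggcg
RPS4X (chrX:72277224-72277263, minus strand): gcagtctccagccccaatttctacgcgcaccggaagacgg
Of the 77 members, 62 matched a RefSeq promoter window, and 47 of these 62 (75.8%) had at least 1 annotated start that is C followed by 4 bases of C or T on the transcribed strand, against 5.14% of 27305 genes with a window. C followed by 4 pyrimidines between 10 bases before and 15 after a start was in 58 of the 62 (93.55%), against 38.43% of genes. CCGGAAG, searched on both strands of the whole window, was in 35.5% of the 62 members and in 12.2% of all genes. AAGATGGCG on both strands was in 8.06% of members and 2.13% of all genes, TATAAA in 8.06% and 14.0%, and CACGTG in 6.45% and 8.78%. A match is a match of letters only.

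HUWE1 mRNA was lower in each knockdown library than in any control of the same table. It stood at 86.1, 86.9, 83.5 and 83.6 TPM in HUWE1 siRNA libraries of set 1, against 157, 162, 155 and 155 TPM in NT libraries. In set 2 the HUWE1 siRNA libraries held 95.6, 94.3, 91.6 and 96.8 TPM and in set 3 79.9, 89.7, 80.3 and 89.3 TPM, against 162, 167, 166 and 159 TPM in their shared NT libraries. The log2 fold changes were -0.88 ± 0.025, -0.78 ± 0.045 and -0.94 ± 0.045 (SE) in sets 1, 2 and 3, with limma adjusted p of 1.69e-07, 7.45e-06 and 8.17e-07. Of 6 markers of the line, LIN28B averaged 34.1 ± 1.72 TPM in HUWE1 siRNA libraries and 41.4 ± 2.10 TPM in NT libraries of set 1 (SD, n = 4 each). Of the 6, 5 fell in set 1, where 17.9% of all genes tested did, and none was called in set 2. In set 3, 2 fell, where 4.15% of all genes did, and the fold changes of the 6 were positive in 3 and negative in 3. Of 5 markers of other cell types, erythroid HBB averaged 0 TPM in every group, leukocyte PTPRC at most 0.051 and hepatocyte ALB 0.15 to 0.57. The T cell marker CD3E averaged 1.60 TPM in HUWE1 siRNA libraries and 1.5 TPM in NT libraries of set 1 and at most 0.053 TPM in the second table, and fibroblast COL1A1 6.03 to 10.9 TPM. The NT libraries of sets 2 and 3 varied more than the other groups: the lowest correlation between 2 libraries over genes was 0.980 there and 0.992 to 0.995 elsewhere. Among them NT replicate 1 had the highest summed TPM of 12 replication-dependent histone genes, at 258 against 87.9 to 143 in the other NT libraries. Poly(A) RNA was sequenced, so this sum may miss histone RNA without a poly(A) tail. NT replicate 4 had the lowest mitochondrially encoded share, 16.6% of TPM against 17.8% to 18.3%. For sets 2 and 3 the counts of members and the large subunit medians are also given without these libraries, and values of single genes are with all libraries.

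Together the members took a large part of all TPM. In set 1 their summed share was 9.41, 9.88, 9.68 and 10.1% of TPM in HUWE1 siRNA libraries, against 9.29, 9.07, 9.17 and 9.54% in NT libraries. In sets 2 and 3 it was 12.9, 13.8, 13.4 and 13.3% in HUWE1 siRNA libraries of set 2 and 13.0, 13.7, 13.4 and 13.5% in those of set 3, against 11.5, 12.5, 12.2 and 13.2% in NT libraries. The knockdown libraries were mostly above the controls, but the groups overlapped in each set, through HUWE1 replicate 1 in set 1 and NT replicate 4 in sets 2 and 3. Mitochondrially encoded transcripts, the other large share, made up 25.1 to 26.2% of TPM in HUWE1 siRNA libraries and 24.3 to 25.8% in NT libraries of set 1. They made up 16.3 to 17.5% in set 2 and 15.5 to 16.4% in set 3, against 16.6 to 18.3% in NT libraries, and their part in the members' share was not tested. TPM is relative to the library total, and in bulk libraries a change in every cell and a change in the share of cells in some state cannot be told apart.

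**Figure D1:**
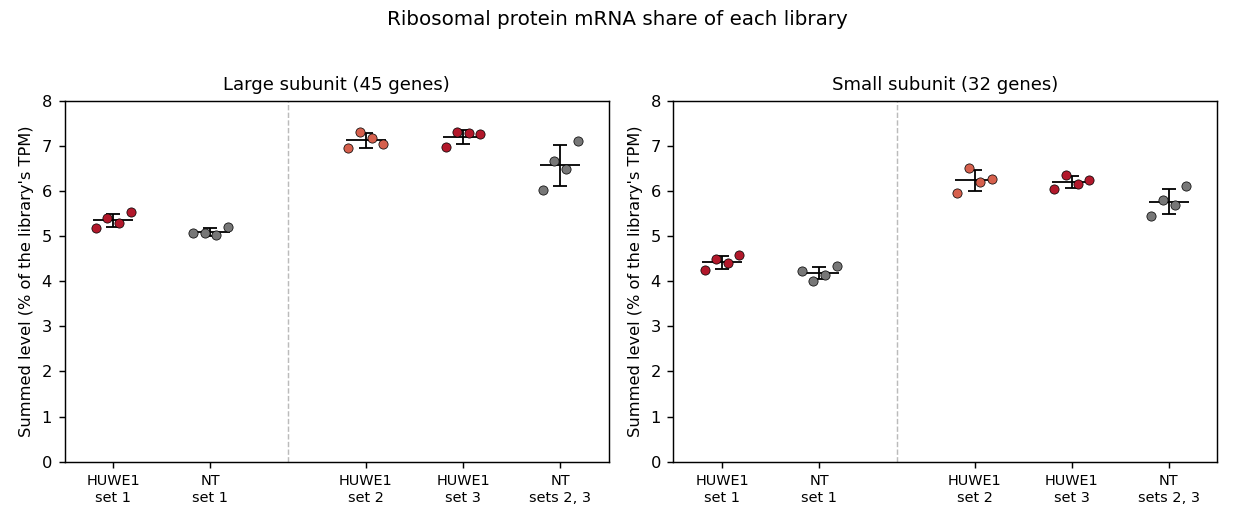
Summed TPM of the large and small subunit genes as a percent of each library's TPM, with a point per library and a bar and whiskers for the mean ± SD (n = 4); the dashed line parts the 2 separately normalized tables. The large subunit means are 5.35 ± 0.152% in HUWE1 set 1 and 5.09 ± 0.0784% in NT set 1, and 7.12 ± 0.164% and 7.20 ± 0.156% in HUWE1 sets 2 and 3 and 6.57 ± 0.456% in NT, whose 4 points are the most spread.

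Levels differed far more between members than between conditions. In the NT libraries of set 1 the highest was RPL41, which encodes a very short peptide of the large subunit, at 5086 ± 189 TPM, and RPS2, at the entry side of the small subunit's mRNA channel, stood next at 4816 ± 105 TPM (SD, n = 4). RPS12 at 3367 ± 265 and RPS18 at 3360.0 ± 218 TPM followed, and these did not differ beyond their spread. The lowest were RPS29 at 151 ± 6.77, RPL14 at 209.7 ± 7.01, RPL28 at 254 ± 20.7 and RPS26 at 270.3 ± 5.09 TPM. The highest mean was 33.7 times the lowest, around a median of 845 TPM. The order was alike in the 2 tables: control levels correlated with r = 0.97 and rho = 0.96 over the 77 genes, which share libraries, so this is a description. The spread between replicates was small, with a median coefficient of variation of 3.18% in HUWE1 siRNA libraries and 3.38% in NT libraries of set 1. In sets 2 and 3 the median was 4.08% and 3.22% in HUWE1 siRNA libraries and 6.52% in NT libraries, and the widest member there was RPL14 at 14.3%. Reads of ribosomal protein mRNAs can also match processed pseudogenes. GENCODE 29 annotates 1123 pseudogenes named after 76 of the 77 members, led by RPL23A, and none of them has values in the TPM tables. The sources used here do not say how shared reads were assigned. Levels of single members are therefore uncertain.

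In set 1, 34 of the 77 members rose and 2 fell at a limma adjusted p under 0.05, where 12.3% of the 16057 genes tested rose and 17.9% fell. With libraries centred on the mean of the members these counts were 7 and 11, beside 644 and 5321 of all genes tested, described below. The 34 were 19 of 45 large subunit and 15 of 32 small subunit genes. At an unadjusted p under 0.05, 45 were higher and 2 lower, against 17.7% and 24.2% of all genes. Fold changes were positive for 66 members, against 46.6% of all genes, and for 55 members under quantile normalization. They were also small: the median log2 fold change was 0.094 over the members (near 0 by construction when libraries are centred on the members), with quartiles of 0.032 and 0.13, and -0.012 over all genes tested. Other well expressed genes, with a mean of at least 100 TPM, had a median of -0.024. Of these 1396 genes, 220 rose and 438 fell at a limma adjusted p under 0.05, and 590 were positive. In 28 members every HUWE1 siRNA library was above every NT library and in 2 every one was below, where 13.3% and 18.4% of all genes did so.

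RPL13A had the smallest p. It encodes a large subunit protein that can leave the ribosome to act in the interferon-gamma-activated inhibitor of translation complex, and its introns hold the C/D box RNAs SNORD32A, SNORD33, SNORD34 and SNORD35A (chr19:49487554-49492308, hg38). RPL13A stood at 1901, 2036, 2001 and 2076 TPM in HUWE1 siRNA libraries, against 1679.6, 1615, 1646 and 1756 TPM in NT libraries, so that the lowest knockdown library was above the highest control. Its log2 fold change was 0.26 ± 0.035 (SE, adjusted p = 0.000705, limma). RPL10, which joins the large subunit late in its maturation (chrX:154389955-154409168), stood at 755, 804, 765 and 814 TPM in HUWE1 siRNA libraries, against 694, 681, 663 and 711 TPM in NT libraries. The groups did not overlap and the log2 fold change was 0.19 ± 0.032 (SE, adjusted p = 0.00209, limma). RPS25, a small subunit protein needed by several viral internal ribosome entry sites (chr11:119015712-119018691), stood at 1254, 1276, 1282 and 1358 TPM in HUWE1 siRNA libraries, against 1113, 969, 1069 and 1142 TPM in NT libraries. Its groups did not overlap either, and its log2 fold change of 0.27 ± 0.049 (SE, adjusted p = 0.00285, limma) was the largest of any member in set 1. RPL14 (chr3:40457292-40468587) stood at 230.2, 239, 229.6 and 246 TPM in HUWE1 siRNA libraries, against 201, 218, 208 and 211 TPM in NT libraries (log2 fold change 0.17 ± 0.031, adjusted p = 0.00332, limma). RPS21 was at 1246, 1274, 1202 and 1248 TPM in HUWE1 siRNA libraries, against 1113, 1117, 1147 and 1156 TPM in NT libraries (log2 fold change 0.13 ± 0.025, adjusted p = 0.00380, limma). Both were higher without overlap. Fits that left out a library were followed for the 25 called members under the rule for named genes, given with the processing. Of these, 12 stayed called in each of the 8 fits. They were RPL3, RPL10, RPL13A, RPL14, RPL24, RPL31, RPS2, RPS3, RPS19, RPS21, RPS25 and RPS26. Without HUWE1 replicate 4 the number of members higher was 18, and 1418 of all genes were higher, against 1983 with all libraries.

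RPS2 and RPL10A were the members that fell. RPS2, whose unassembled protein is bound by the chaperone PDCD2 (chr16:1962052-1964860), stood at 4143, 4429, 4290.1 and 4460.4 TPM in HUWE1 siRNA libraries, against 4708, 4959, 4806 and 4791 TPM in NT libraries. All knockdown libraries were below all controls, with a log2 fold change of -0.15 ± 0.031 (SE, adjusted p = 0.00515, limma), and the call was lost under quantile normalization and with no filter. RPL10A, the protein of the mobile L1 stalk beside the exit site (chr6:35468408-35470785), stood at 1779, 1868, 1805 and 1886 TPM in HUWE1 siRNA libraries, against 1899.9, 2021, 1935 and 1988 TPM in NT libraries. These also did not overlap, but the call at a log2 fold change of -0.10 ± 0.029 (SE, adjusted p = 0.0316, limma) was lost in 10 of 20 alternatives. Among these were the fits without NT replicate 2, 3 or 4 or HUWE1 replicate 1 or 3, and its adjusted p reached at most 0.120 over all alternatives. Neither was called lower in the second table on this scale: RPS2 changed by 0.048 in set 2 and -0.0080 in set 3, and RPL10A by 0.11 and 0.084 on the log2 scale, with adjusted p of 0.730, 0.914, 0.569 and 0.252 (limma).

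In set 2 no member was called, and neither were genes at large: 0% of the 15860 genes tested rose and 0.0126% fell, HUWE1 among them. The fold changes of the members were all positive, 77 of 77 (65 under quantile normalization), against 48.3% of all genes. At an unadjusted p under 0.05, 38 members were higher and none lower, against 5.05% and 3.78% of all genes. Without NT replicate 1 the 38 were 18, against 3.99% of all genes, without NT replicate 4 they were 64, against 12%, and without both 50, against 7.29%. The median log2 fold change was 0.12 over the members (near 0 by construction when centred on them) and -0.0041 over all genes tested. Without NT replicate 1 the large subunit median of set 2 was 0.073, and without NT replicates 1 and 4 it was 0.12. In 4 members, RPL10, RPS23, RPS27 and RPS4X, every HUWE1 siRNA library of set 2 was above every NT library, against 1.99% of all genes, and in none was every one below, against 1.71%. Without NT replicate 4 the 4 were 57, against 8.99% of all genes. The lowest adjusted p of any member was 0.448 for RPS27 (limma), whose zinc finger protein has the paralog RPS27L. RPS27 (chr1:153990755-153992155) stood at 3609.9, 4017, 3848 and 4056 TPM in HUWE1 siRNA libraries of set 2, against 3388, 3478, 3462 and 3539 TPM in NT libraries, a log2 fold change of 0.16 ± 0.045 (SE).

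In set 3, 15 members rose and none fell, against 7.45% and 4.15% of the 15860 genes tested (limma, adjusted p under 0.05). They were 10 large subunit genes (RPL9, RPL10, RPL13A, RPL14, RPL18, RPL23A, RPL24, RPL29, RPL31 and RPL34) and 5 small subunit genes (FAU, RPS3A, RPS7, RPS23 and RPS25). At an unadjusted p under 0.05, 49 were higher and none lower, against 19.9% and 14.6% of all genes. Without NT replicate 1 the 49 were 34, against 16.6%, and without NT replicate 4 they were 59, against 24.3%. Fold changes were positive for 74 members (55 under quantile normalization), against 51.5% of all genes. Higher without overlap were 23 members, against 11.2%, and lower without overlap none, against 6.03%. Without NT replicate 4 the 23 were 60, against 23% of all genes. The median log2 fold change was 0.12 over the members (near 0 by construction when centred on them), 0.0074 over all genes tested and 0.041 over other genes averaging at least 100 TPM. Of these 1426 other genes, 854 were positive, and 144 rose and 78 fell at a limma adjusted p under 0.05. At an unadjusted p under 0.05, 405 of the 1426 were higher and 219 lower (limma). The count of 15 depended on the scaling and filter and on single libraries. It was 1 under median-of-ratios scaling, 4 without mitochondrially encoded genes, 8 under quantile normalization, 7 without the variance trend, 4 with length and GC trends removed, and 0 with no filter or with libraries centred on the members. The large subunit median was 0.093 without NT replicate 1 and 0.14 without NT replicates 1 and 4. The count of members higher was 1 without NT replicate 1, 0 without NT replicate 2 or 3, 52 without NT replicate 4, and 32 without both NT 1 and NT 4. Of all genes, 1181 were higher with all libraries, and 483, 231, 167 and 3029 without NT replicates 1, 2, 3 and 4. Without both NT 1 and NT 4, 1891 genes were higher. The count of members was 1, 2, 0 and 0 without HUWE1 replicates 1, 2, 3 and 4 of set 3, beside 322, 842, 101 and 95 genes. It was 0 when only the 8 libraries compared were fitted, beside 221 of all genes. NT replicate 1 held the lowest and NT replicate 4 the highest member share of the 4 controls, beside the histone and mitochondrial values given above, whose part in this was not tested.

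RPL9, a large subunit protein, stood at 1169, 1220.3, 1325 and 1260.4 TPM in HUWE1 siRNA libraries of set 3, against 931, 1027, 1052 and 1136 TPM in NT libraries. The groups did not overlap and the log2 fold change of 0.26 ± 0.062 (SE) had the smallest p of the members in set 3 (adjusted p = 0.0255, limma). In set 1 RPL9 overlapped between the groups, with a log2 fold change of 0.024 (adjusted p = 0.578). RPL10 stood at 1024, 1036, 994 and 1004 TPM in HUWE1 siRNA libraries of set 3 and 983, 1059, 958 and 991 TPM in those of set 2, against 807, 906, 877 and 943 TPM in NT libraries. Every knockdown library of both sets was above every control, with log2 fold changes of 0.20 ± 0.050 in set 3 (adjusted p = 0.0302) and 0.18 ± 0.050 in set 2 (adjusted p = 0.453, limma). RPS3A, a small subunit protein, stood at 5620.4, 5852, 6011 and 5924 TPM in HUWE1 siRNA libraries of set 3, against 4517, 5010.2, 5095 and 5458 TPM in NT libraries (log2 fold change 0.22 ± 0.057, adjusted p = 0.0339, limma). RPL24, which forms a bridge between the subunits, stood at 966, 984, 1130.4 and 1071 TPM in HUWE1 siRNA libraries, against 752, 865, 869.8 and 973 TPM in NT libraries (log2 fold change 0.27 ± 0.072, adjusted p = 0.0379, limma). Its groups overlapped, since NT replicate 4 was above HUWE1 replicate 1, while those of RPS3A did not. RPL31, near the exit of the peptide tunnel, stood at 1022, 1042, 1066 and 1078 TPM in HUWE1 siRNA libraries, against 852, 924, 895 and 1005 TPM in NT libraries, again with no overlap (log2 fold change 0.20 ± 0.053, adjusted p = 0.0380, limma). None of the 15 members called in set 3 stayed called in all 8 fits that left out a library.

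**Figure D2:**
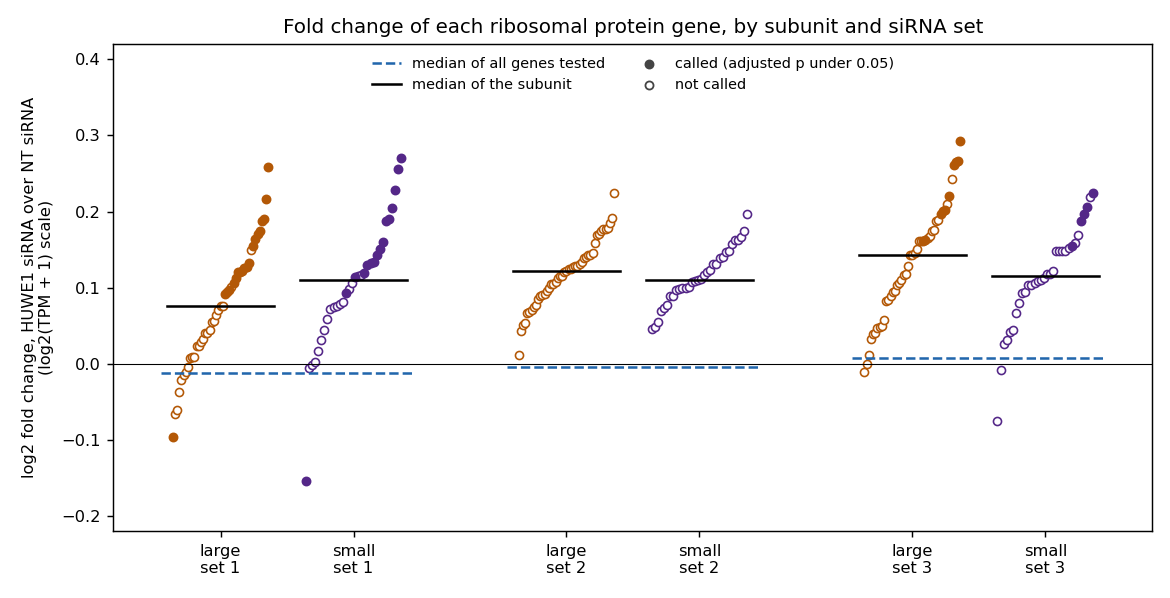
Log2 fold change of each member (HUWE1 siRNA over NT siRNA, log2(TPM + 1) scale), sorted within each subunit and set; filled points were called by limma, black bars are subunit medians and blue dashed lines the median of all genes tested. The large subunit medians are 0.076, 0.12 and 0.14 and the small subunit medians 0.11, 0.11 and 0.12 in sets 1, 2 and 3; they stayed above 0 under each scaling tried except centring on the members, which puts them near 0 by construction.

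Both HUWE1 siRNA groups of the second table were also set against each other. No member was called in set 3 against set 2, where 0.309% of genes rose and 0.208% fell, and the lowest adjusted p was 0.340 for RPS28 (limma). At an unadjusted p under 0.05 there was also no member, against 10.1% of all genes higher and 5.66% lower. The difference was positive for 44 members, against 53% of all genes. The median log2 difference was 0.016 for the large and 0.0047 for the small subunit, against 0.0092 for all genes tested. RPL13A stood at 2749, 2792, 2963 and 2841 TPM in set 3, against 2723, 2703, 2731 and 2650.0 TPM in set 2, with the control libraries of both at 2013, 2458, 2335 and 2712 TPM. All its set 3 libraries were above all its set 2 libraries, as were those of RPL7A and RPL23A and 8.13% of all genes, and in no member were all below, against 5.05%. These 3 were not called, at an adjusted p of 0.644, 0.415 and 0.391 (limma).

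Set 1 and the second table have separate controls, so their calls can be laid side by side. The members called higher in sets 1 and 3 were FAU, RPL10, RPL13A, RPL14, RPL24, RPL31, RPL34, RPS23 and RPS25, which is 26.5% of the 34 of set 1 and 60% of the 15 of set 3. Of all 15296 genes tested in both tables, 378 (2.47%) were called higher in both sets, which is 19.3% of those higher in set 1 and 32.5% of those higher in set 3. Of all 77 members, 44.2% were called higher in set 1 and 19.5% in set 3. RPL10, RPS23 and RPS27 were higher without overlap in all 3 sets, as were 0.484% of all genes tested in both tables, and sets 2 and 3 share their controls. RPS23, in the decoding centre (chr5:82273358-82278577), stood at 833, 828, 823 and 857 TPM in HUWE1 siRNA libraries of set 1, against 788, 749, 782 and 812 TPM in NT libraries. In the second table RPS23 stood at 1206, 1267, 1243 and 1282 TPM in set 2 and 1219, 1279, 1285 and 1289.8 TPM in set 3, against 1005, 1134, 1121 and 1202 TPM in NT libraries. Its log2 fold changes were 0.094 ± 0.028, 0.17 ± 0.051 and 0.19 ± 0.051 (SE) in sets 1, 2 and 3, with adjusted p of 0.0303, 0.475 and 0.0391 (limma). Its call in set 1 was lost without NT replicate 1, 2 or 3 or HUWE1 replicate 3 or 4. RPS25 stood at 1863, 1997, 1962 and 2033 TPM in HUWE1 siRNA libraries of set 2 and 1907, 2038, 2041 and 2083 TPM in those of set 3, against 1583, 1787, 1789.6 and 1891 TPM in NT libraries. It overlapped in set 2 through NT replicate 4 and was clear of it in set 3 (log2 fold change 0.20, adjusted p = 0.0419, limma). RPL14 stood at 436, 434, 454 and 434 TPM in set 2 and 439.9, 449, 489.8 and 466 TPM in set 3, against 309, 392, 375 and 439.7 TPM in NT libraries, where replicate 1 was far below the others. In set 3 its lowest knockdown library and its highest control were nearly equal. RPL34 had log2 fold changes of 0.092 in set 1 and 0.22 in set 3, with adjusted p of 0.0190 and 0.0394 (limma), and its call in set 1 was lost without HUWE1 replicate 3 or 4. Over all 77 genes the fold changes of sets 1 and 3 correlated with r = 0.30 and rho = 0.31, a description over genes of the same libraries.

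**Figure D3:**
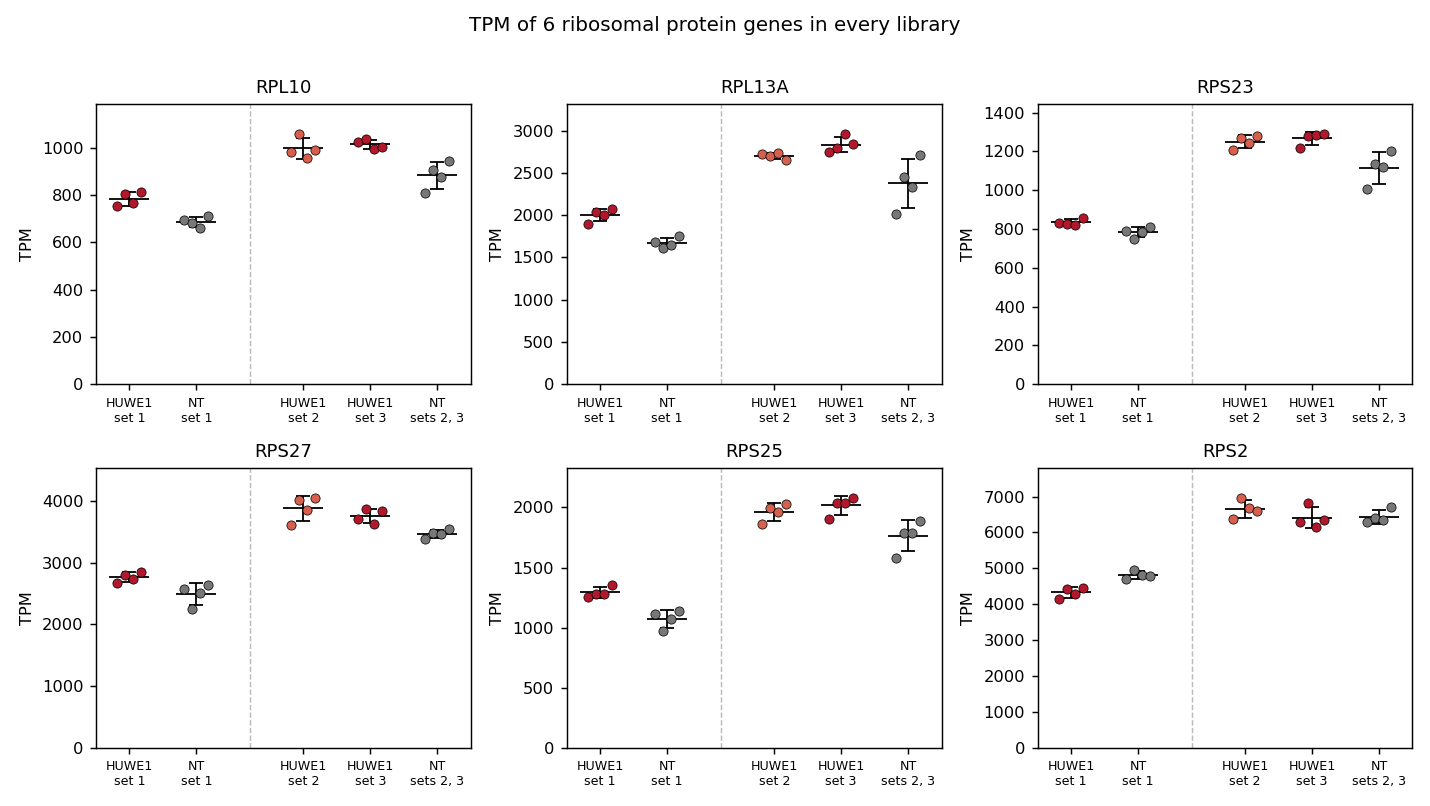
TPM of 6 members in every library, with points for libraries and bars with whiskers for the mean ± SD (n = 4); axes start at 0 and the dashed line parts the 2 tables. RPL10, RPS23 and RPS27 have every HUWE1 siRNA point above every NT point of their table, RPL13A and RPS25 do so in sets 1 and 3, and RPS2 is below the NT points only in set 1.

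The medians of the large and small subunits were close in each set. The median log2 fold change was 0.076 for the large and 0.11 for the small subunit in set 1, 0.12 and 0.11 in set 2, and 0.14 and 0.12 in set 3. Under quantile normalization the large and small medians were 0.046 and 0.056 in set 1, 0.046 and 0.055 in set 2, and 0.062 and 0.039 in set 3. The large minus small difference of medians was -0.033, 0.011 and 0.028, so its sign was not the same in the 3 sets. It was -0.011 in set 1 without NT replicate 2, and without NT replicate 1 of the second table it was -0.011 in set 2 and 0.0049 in set 3. In set 2 it was also below 0 without HUWE1 replicate 3, at -0.0031, and under quantile normalization, at -0.0085. Per library, the mean log2 level of the large minus that of the small subunit was -0.078, -0.12, -0.10 and -0.10 in HUWE1 siRNA libraries of set 1, against -0.10, -0.017, -0.066 and -0.10 in NT libraries. It was -0.052, -0.10, -0.050 and -0.10 in HUWE1 siRNA libraries of set 2 and -0.065, -0.070, -0.042 and -0.051 in those of set 3, against -0.12, -0.071, -0.074 and -0.052 in NT libraries. The groups overlapped in every set.

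**Figure D4:**
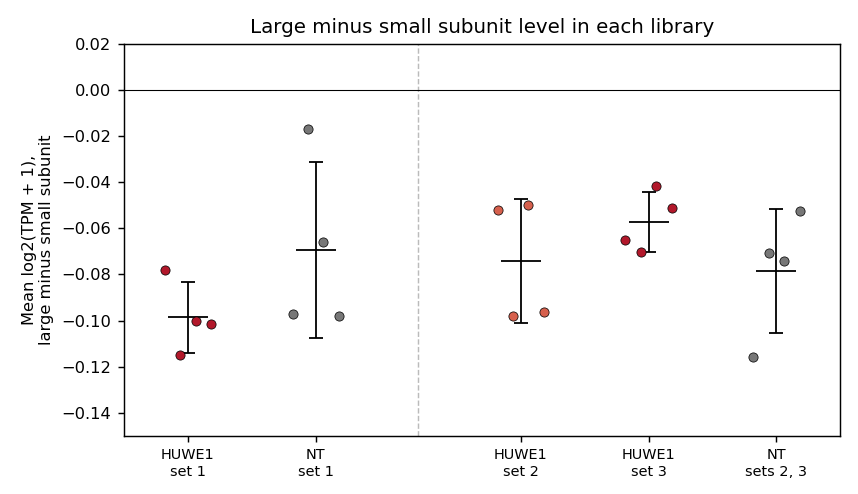
Mean log2(TPM + 1) of the 45 large subunit genes minus that of the 32 small subunit genes in each library, with the mean ± SD (n = 4). Group means are -0.10 ± 0.015 in HUWE1 set 1 and -0.069 ± 0.038 in NT set 1, -0.074 ± 0.027 in HUWE1 set 2, -0.057 ± 0.013 in HUWE1 set 3 and -0.078 ± 0.027 in NT, and each HUWE1 group overlaps its controls.

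To see how members moved against one another, each library was centred on the mean of the members, a setting chosen after the data had been seen. It moves the median of all genes tested by -0.087, -0.12 and -0.13 in sets 1, 2 and 3. On this scale 7 members of set 1 were called higher (RPL10, RPL13A, RPL19, RPL27A, RPS3, RPS25 and RPS28). Called lower were 11, among them RPS2, RPL10A, RPLP0 and RPS14. Of all 16057 genes tested, 644 were called higher and 5321 lower on this scale. Set 2 had no member called, and set 3 had RPS2 alone, at a log2 difference of -0.13 (adjusted p = 0.0407, limma). In set 3, 114 of all 15860 genes tested were called higher and 1087 lower on this scale. The fold change of RPS2, not its level, was thus called below the mean fold change of the members in sets 1 and 3. The fold changes of RPL12, RPL21 and RPL23A, which are among the 11 called lower in set 1, were 0.0089, 0.0074 and 0.0092 before centring.

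By role, the P stalk binds the translation factors that use GTP. RPLP0, its base, had log2 fold changes of -0.021, 0.10 and 0.039 in sets 1, 2 and 3, and RPLP1 of 0.076, 0.012 and 0.00045, none of them called. RPLP2 was called in set 1 at 1259, 1334, 1337 and 1404 TPM in HUWE1 siRNA libraries, against 1237, 1083, 1169 and 1280.3 TPM in NT libraries (log2 fold change 0.16 ± 0.052, adjusted p = 0.0375, limma), where the groups overlapped. RPL5 and RPL11 form the particle with 5S ribosomal RNA that binds MDM2 when assembly fails. RPL5 rose in set 1, with 1313, 1313, 1357 and 1402 TPM in HUWE1 siRNA libraries, against 1253, 1265, 1236 and 1279 TPM in NT libraries (log2 fold change 0.10 ± 0.027, adjusted p = 0.0217, limma). RPL11 was at 1243, 1339.8, 1332 and 1429.8 TPM in HUWE1 siRNA libraries, against 1255, 1103, 1180.1 and 1285 TPM in NT libraries, and its log2 fold change of 0.15 ± 0.053 did not pass (adjusted p = 0.0588, limma). In sets 2 and 3 RPL5 had log2 fold changes of 0.10 and 0.089 and RPL11 of 0.11 and 0.10, not called. The calls of RPLP2 and RPL5 in set 1 were lost without HUWE1 replicate 3 or 4 or NT replicate 3, and that of RPLP2 also without NT replicate 2 or HUWE1 replicate 2.

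Among other large subunit members of known role or extreme level, 4 were called in set 1. RPL3, beside the peptidyl transferase centre, rose in set 1 to 1194 ± 41.5 TPM in HUWE1 siRNA libraries, against 1098 ± 21.9 TPM in NT libraries (SD, n = 4 each; adjusted p = 0.0116, limma). RPL26, a target of UFM1 near the tunnel exit, rose to 1124 ± 37.5 TPM, against 1030.3 ± 37.3 TPM in NT libraries (adjusted p = 0.0177, limma; lost without HUWE1 replicate 4). RPL7A was called at a log2 fold change of 0.12 (adjusted p = 0.0415), a call lost without NT replicate 1, 3 or 4 or HUWE1 replicate 2, 3 or 4 and reversed under quantile normalization. RPL28 was called at 0.19 (adjusted p = 0.0211, limma), and the call was lost without HUWE1 replicate 2 or 4. RPL8, of the peptidyl transferase centre, RPL22, which has the paralog RPL22L1, RPL38, needed for translation of Hox mRNAs in mouse, RPL39, in the peptide tunnel, and RPL41 were not called in any set. Their set 1 log2 fold changes were 0.055, 0.056, -0.061, -0.015 and 0.064.

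On the small subunit, RPS3, at the mRNA entry and a ubiquitination site during stalling, rose in set 1. It stood at 937, 1041, 957 and 1042 TPM in HUWE1 siRNA libraries, against 868, 863, 843 and 907 TPM in NT libraries, without overlap (log2 fold change 0.19 ± 0.040, adjusted p = 0.00609, limma). RPS27 stood at 2671, 2807, 2729 and 2851 TPM in HUWE1 siRNA libraries of set 1, against 2572, 2243, 2514 and 2646 TPM in NT libraries (log2 fold change 0.15 ± 0.048, adjusted p = 0.0390, limma). It was clear of its controls, but the call was lost without NT replicate 3 or HUWE1 replicate 2, 3 or 4, and in set 3 its log2 fold change was 0.12 (adjusted p = 0.0916). RPS12 and RPS9 rose at 0.20 and 0.14 in set 1 (adjusted p = 0.0209 and 0.0191, limma), and both calls were lost without HUWE1 replicate 4, that of RPS12 also without HUWE1 replicate 3 and that of RPS9 without NT replicate 3. RPSA, also named for its other form as a laminin receptor, RPS6, the substrate of S6 kinase, RPS14, the gene lost in the 5q- syndrome, RPS18 and RPS29 were not called in any set. Their set 1 log2 fold changes were 0.016, 0.11, 0.0031, 0.044 and 0.082.

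Genes in which loss of 1 copy causes Diamond-Blackfan anaemia are spread over both subunits, and 19 members were listed as such. In set 1, 8 of the 19 rose (RPL5, RPL26, RPL31, RPL35A, RPS19, RPS26, RPS27 and RPS28) and none fell, with a median of 0.098, beside 34 of all 77 members and 12.3% of all genes tested higher and 17.9% lower. In set 3 RPL18, RPL31 and RPS7 rose and none fell, with a median of 0.15, beside 15 of all 77 members and 7.45% of all genes, and in set 2 all 19 were positive and none was called. RPS19, the gene most often affected, stood at 762, 831, 779 and 827 TPM in HUWE1 siRNA libraries of set 1, against 726, 739, 732 and 747 TPM in NT libraries, with no overlap (adjusted p = 0.0164, limma). RPS26, beside the mRNA exit, stood at 287, 295, 287 and 301 TPM in HUWE1 siRNA libraries, against 263, 275, 273 and 270.5 TPM in NT libraries, also clear of them (adjusted p = 0.00681, limma).

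A pair of members is made as a fusion to ubiquitin or a ubiquitin-like protein. FAU encodes the ubiquitin-like FUBI fused to RPS30 (chr11:65120628-65122473). FAU stood at 561, 684, 615 and 655 TPM in HUWE1 siRNA libraries of set 1, against 553, 496, 504 and 591 TPM in NT libraries (log2 fold change 0.23 ± 0.069, adjusted p = 0.0309, limma). It overlapped there through HUWE1 replicate 1 but not in set 3, where it stood at 784, 789.9, 805 and 810.5 TPM in HUWE1 siRNA libraries, against 625, 696, 678 and 774 TPM in NT libraries (adjusted p = 0.0402, limma). RPS27A, ubiquitin fused to a small subunit protein, stood at 801, 824, 849.6 and 873 TPM in HUWE1 siRNA libraries of set 1, against 790.3, 713, 753 and 795 TPM in NT libraries, higher without overlap (log2 fold change 0.13 ± 0.040, adjusted p = 0.0285, limma). In set 3 it was clear of its controls too but missed the threshold (log2 fold change 0.17, adjusted p = 0.0506). Outside the rule for members, the polyubiquitin gene UBB had log2 fold changes of 0.034 in set 1 and 0.22 in set 3, not called. The set 1 call of FAU was lost without NT replicate 2 or 3 or HUWE1 replicate 2, 3 or 4, and that of RPS27A without NT replicate 2 or 3 or HUWE1 replicate 3 or 4.

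Shared properties of the members that the rule did not use were set beside the fold changes. The members lie on 21 chromosomes, with transcripts of a median 681.5 bases against 1708 for all genes tested in set 1, and a median GC content of 50.8% against 49.95%. An annotated snoRNA lies within the gene span of 28 members, on the same strand. Of these 28, 13 rose and 1 fell in set 1, with a median of 0.087, and of the other 49, 21 rose and 1 fell, with a median of 0.094, where 12.3% of all genes tested rose and 17.9% fell. In sets 2 and 3 the medians were 0.11 and 0.12 for the 28 and 0.12 and 0.12 for the 49. The 47 members whose annotated start matched C with 4 pyrimidines had medians of 0.11, 0.13 and 0.15 in sets 1, 2 and 3, and the 15 with another start 0.076, 0.12 and 0.14. This split rests on the exact annotated base. Between 10 bases before and 15 after it, 58 of the 62 had the match, so the split need not part TOP from other mRNAs. RPL9, RPL10A and RPS4X, printed above without the run, include a member called higher in set 3, one called lower in set 1 and one called higher in set 1 at 0.16 (adjusted p = 0.0124, limma).

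Lists of genes tied to the ribosomal proteins were looked at in the same fits. Of 16 other TOP mRNAs, mostly translation factors, 11 rose in set 1 and 1 fell, with a median of 0.14, where 12.3% of all genes rose and 17.9% fell. EIF3F, a subunit of initiation factor eIF3, averaged 78.4 ± 3.72 TPM in HUWE1 siRNA libraries and 64.7 ± 2.40 TPM in NT libraries of set 1 (SD, n = 4 each; adjusted p = 0.000898, limma). EIF3E averaged 178 ± 9.60 and 148 ± 4.39 TPM and the elongation factor gene EEF1D 159 ± 10.2 and 133 ± 5.78 TPM in the same 2 groups (adjusted p = 0.00108 and 0.00284, limma). VIM, an intermediate filament gene, was the one that fell, at -0.15 (adjusted p = 0.00332, limma). In set 2 all 16 were positive with a median of 0.15 and none was called. In set 3, where 7.45% of all genes rose, 4 of the 16 rose and the median was 0.21: EEF1A1, EIF3E, NAP1L1 and TPT1, at log2 fold changes of 0.22, 0.43, 0.39 and 0.26. The calls of EEF1A1 and EIF3E were lost without NT replicate 2 or 3 or any HUWE1 replicate, that of NAP1L1 without NT replicate 1, 2 or 3 or HUWE1 replicate 1, 3 or 4, and that of TPT1 (adjusted p = 0.0130, limma) without HUWE1 replicate 3 or 4.

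Of 12 genes that control TOP mRNAs or ribosome production, 1 rose and 2 fell in set 1, near the 12.3% and 17.9% of all genes, and none was called in sets 2 and 3. EIF4EBP1, an inhibitor of initiation that mTOR phosphorylates, averaged 487 ± 10.9 TPM in HUWE1 siRNA libraries and 635 ± 35.0 TPM in NT libraries of set 1 (SD, n = 4 each; adjusted p = 0.000146, limma). MYC, a driver of ribosome production, averaged 210.0 ± 5.91 and 237 ± 8.68 TPM (adjusted p = 0.00292), and TSC1, an inhibitor of mTOR signalling, 21.1 ± 0.257 and 19.0 ± 0.359 TPM (adjusted p = 0.00594, limma). LARP1, which binds TOP mRNAs, had log2 fold changes of -0.0050, -0.031 and -0.11 in sets 1, 2 and 3, not called.

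Of 15 chaperones and importers of ribosomal proteins, 6 fell and none rose in set 1, with a median of -0.054, where 17.9% of all genes fell and 12.3% rose. LTV1, a small subunit assembly factor, averaged 102 ± 1.46 TPM in HUWE1 siRNA libraries and 121 ± 2.04 TPM in NT libraries (SD, n = 4 each; adjusted p = 0.000134, limma). GRWD1, the human counterpart of a yeast chaperone of RPL3, averaged 74.9 ± 1.45 and 84.0 ± 2.32 TPM, and BCCIP, a chaperone of RPL23, 72.8 ± 1.65 and 79.8 ± 1.18 TPM (adjusted p = 0.00196 and 0.00389, limma). In set 2 none was called. In set 3 IPO7 and PDCD2 rose, at 0.31 and 0.19 (adjusted p = 0.0344 and 0.04997, limma), where 7.45% of all genes rose, and none fell. The call of IPO7 was lost without NT replicate 1, 2 or 3 or HUWE1 replicate 1, 3 or 4, and that of PDCD2 without any single library except NT replicate 4.

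Of 9 genes of ubiquitin enzymes that act on ribosomal proteins, HUWE1 included, 1 rose and 3 fell in set 1. Without HUWE1 this is 1 and 2 of 8, near the 12.3% and 17.9% of all genes. Those that fell besides HUWE1 were USP10, which removes ubiquitin from small subunit proteins, at 137 ± 3.04 TPM in HUWE1 siRNA libraries and 159 ± 2.70 TPM in NT libraries (adjusted p = 0.000292, limma), and MDM2, at 37.9 ± 1.83 and 42.3 ± 0.440 TPM (adjusted p = 0.00870). RNF10, the ligase for RPS2 and RPS3, was higher at 0.067 (adjusted p = 0.0403, limma), a call lost without any single library except HUWE1 replicate 1. In set 3 UBE2O, which marks unassembled ribosomal proteins, fell to 71.7 ± 4.23 TPM in HUWE1 siRNA libraries, against 88.1 ± 6.66 TPM in NT libraries (adjusted p = 0.0155, limma), where 4.15% of all genes fell. This call was lost without HUWE1 replicate 3 or 4. In set 2 only HUWE1 was called.

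Paralogs of members lie outside the rule. Of 7 tested in set 1, where 12.3% of all genes rose and 17.9% fell, none rose, and RPL7L1 and RPL26L1 fell, at 218 ± 5.48 and 118 ± 2.07 TPM in HUWE1 siRNA libraries, against 241 ± 3.30 and 128 ± 2.95 TPM in NT libraries (adjusted p = 0.00209 and 0.00728, limma). In set 3, where 7.45% of all genes rose, RPL22L1, RPL39L and RPS27L rose, at log2 fold changes of 0.29, 0.39 and 0.20 (adjusted p = 0.0459, 0.0438 and 0.0421, limma), with each call lost without any single library except NT replicate 4. RPL3L and RPL36AL were not called, at -0.32 and -0.012 in set 3, and no paralog was called in set 2. Of 3 readthrough transcripts that begin in a member, RPL36A-HNRNPH2 fell in set 1, where 17.9% of all genes did, at -0.28 (adjusted p = 0.0480, limma), lost in 13 of 20 alternatives, among them those without NT replicate 1, 2 or 3 or HUWE1 replicate 1, 2 or 4. Of 8 non-coding hosts of snoRNAs, SNHG12 and SNHG5 rose in set 1, where 12.3% of all genes did, at 0.41 and 0.10 (adjusted p = 0.000344 and 0.0370, limma), and none was called in sets 2 and 3. In set 2 all 8 were positive, with a median of 0.15. There 7 were higher and 0 lower at an unadjusted p under 0.05 (limma), against 5.05% and 3.78% of all genes. In set 3, 7 were positive and 1 negative, with a median of 0.076. The call of SNHG5 was lost without NT replicate 1, 2 or 4 or HUWE1 replicate 2, 3 or 4.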

How the data were processed

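Poly(A) RNA of 20 HEK293T libraries was sequenced with a stranded kit, per the labels' protocols. Values came as 2 separately normalized tables of TPM, which the authors deposited, on build hg38 per the submitters' processing notes. How reads were aligned, counted and annotated is not stated in those sources. TPM sums alike in all libraries and leaves the depth behind a value unknown.

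Genes that reached 1 TPM in 4 or more libraries (16057 in the first table, 15860 in the second) were tested as log2(TPM + 1) with limma 3.58.1 in R 4.3.3, with the prior variance following mean expression. Calls were made under 0.05 after Benjamini-Hochberg adjustment over all of them. Set 1 was fitted on 8 libraries and the second table as 1 model of 12. Fold changes on this scale understate those of low genes. The procedure was tested on simulated data. Coordinates, lengths and snoRNAs come from GENCODE 29 on the same build and sequences from RefSeq.

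The members, the other lists and the rule for named genes (the 5 called members with the smallest p per set and direction, the most and least abundant, members of known role, those called in sets 1 and 3, and list genes) were chosen with earlier results of these data known. Members outside that rule, named where a count is listed, and RPS4X were chosen after their values were seen. No sum or score over members was tested. Some genes are not reported here.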

Additional observations from a re-analysis of the deposited data

Results flagged for a closer look

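Of 230 sets of 4 libraries examined for 1 library far from the other 3, 6 were picked out by Dixon's critical value of 0.829, and chance picks out about 1 in 20. In HUWE1 siRNA libraries of set 2, RPL14 stood at 454 TPM in replicate 3, against 434 to 436 TPM in the others. RPS21 stood at 1542 TPM in replicate 2, against 1250.4 to 1288 TPM, and RPS9 at 524 TPM in replicate 2, against 487 to 493 TPM. In HUWE1 siRNA libraries of set 3, replicate 1 was the low one each time. There RPL39 stood at 1638 TPM, against 1751 to 1767 TPM in the other replicates, RPS23 at 1219 TPM, against 1279 to 1289.8 TPM, and the summed large subunit share at 6.97% of TPM, against 7.27% to 7.30%.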

How the results depend on the processing

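Alternatives were a pseudocount of 0.1, other filters and scalings, other variance models, a replicate block, removal of length and GC trends and leaving out each library; centring on the members and leaving out NT replicates 1 and 4 together were chosen after seeing the data. In set 1 the 34 members higher became 18 with no filter and 7 after centring, and 18 to 40 without single libraries. They were 23 without the variance trend, 25 under quantile normalization, 41 under median-of-ratios scaling and 43 with length and GC trends removed. The 2 lower became 0 with no filter, 3 under quantile normalization, 11 after centring, and 1 to 2 without single libraries. They became 1 under median-of-ratios scaling, with TPM recomputed without the members, without the variance trend and with length and GC trends removed. In set 3 the 15 higher became 0 with no filter, with only the groups compared and after centring, 1 under median-of-ratios scaling, 8 under quantile normalization, 4 without mitochondrially encoded genes, 7 without the variance trend, 4 with length and GC trends removed, 32 without NT 1 and 4, and 0 to 52 without single libraries; the 0 lower became 1 after centring. Why was not tested. The background moved too: set 1 had 1983 genes higher and 2880 lower as reported, 2899 and 2627 with length and GC trends removed, and 644 and 5321 after centring. It had 2374 and 2474 under median-of-ratios scaling, 2430 and 2357 under quantile normalization, and 1831 and 2726 without the variance trend. Set 3 had 1181 and 658 as reported, 897 and 963 under median-of-ratios scaling, 1023 and 929 under quantile normalization, 684 and 867 without mitochondrially encoded genes, 1018 and 1025 with length and GC trends removed, and 114 and 1087 after centring. With no filter these numbers were 1520 and 2391 in set 1 and 454 and 244 in set 3. Without single libraries the genes higher ranged from 1418 to 1879 in set 1 and from 95 to 3029 in set 3.

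Under quantile normalization the subunit medians were 0.056 (small, set 1), 0.046 and 0.055 (large and small, set 2) and 0.062 and 0.039 (large and small, set 3). Without mitochondrially encoded genes the small subunit median of set 3 was 0.084. Centring put the medians at -0.011 and 0.023 in set 1, 0.0036 and -0.0076 in set 2, and 0.017 and -0.011 in set 3 (large and small). Without single libraries the large and small medians ranged from 0.059 to 0.091 and 0.082 to 0.12 in set 1, 0.073 to 0.16 and 0.084 to 0.15 in set 2, and 0.093 to 0.18 and 0.089 to 0.15 in set 3. The large minus small difference was -0.0094 under quantile normalization in set 1, 0.011 with length and GC trends removed and 0.016 without NT 1 and 4 in set 3. Without single libraries it ranged from -0.038 to -0.011, -0.011 to 0.015 and 0.0049 to 0.035 in sets 1, 2 and 3. RPL7A reversed in set 1 under quantile normalization (-0.024) and RNF10 after centring (-0.020).

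Deviations of libraries with the same number were not correlated over 0.1 in every pair (0.00022 to 0.052 in set 1, -0.48 to 0.039 in set 2, -0.027 to 0.41 in set 3), so numbers were not taken to pair samples. With the replicate number as a block, 37 members were higher and 2 lower in set 1, 0 and 0 in set 2, 17 and 0 in set 3, and 0 and 0 in set 3 against set 2.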

Other observations

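Fold changes were set beside GC content over the 77 members. In set 1 the correlation was near 0 (r = -0.012, rho = -0.00013), while in set 2 members of lower GC had the larger fold changes (r = -0.48, rho = -0.46), and likewise in set 3 (r = -0.33, rho = -0.31). Over all genes tested with an annotation the same r was 0.0033, -0.13 and -0.14. Sets 2 and 3 share their controls, and genes of 1 library are not independent, so no p is given.

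The list of replication-dependent histone genes, used above as a property of the libraries, had medians of -0.26, -0.46 and -0.69 in sets 1, 2 and 3. Since poly(A) RNA was sequenced, these values and those below may miss histone RNA without a poly(A) tail. Of 10 tested, HIST2H2BE and HIST1H2AC fell in set 1, at -0.85 and -0.34 (limma adjusted p = 0.00352 and 0.00308), where 17.9% of all genes fell. In set 3, where 4.15% of all genes fell, HIST1H4J, HIST1H2BK and HIST1H2BD fell, at -0.73, -0.81 and -0.85 (limma adjusted p = 0.0218, 0.0329 and 0.0350). None was called in set 2, and each of the set 3 calls was lost without HUWE1 replicate 3 or 4 of set 3 or without NT replicate 3. HIST1H2BK stood at 36.9, 36.5, 38.9 and 29.9 TPM in HUWE1 siRNA libraries of set 3, against 105, 49.0, 62.7 and 47.9 TPM in NT libraries, where replicate 1 was the highest.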
